A study of Mus musculus with 6 samples.

Results

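The genes described here are 10 cytosolic glutathione S-transferases (GSTs) of the mouse: Gsta1, Gsta2, Gsta3 and Gsta4 of the alpha class, Gstm1, Gstm2 and Gstm5 of the mu class, Gstp1 of the pi class, Gstt1 of the theta class and Gsto1 of the omega class. They were taken as every row of the deposited probe table that carried 1 of these symbols, which gave 16 of the 25697 probes and 10 of the 17913 distinct genes on the array. Of the 16 probes, 14 were above background on at least 3 of the 6 arrays. The genes belong to 1 enzyme family and were selected on their differences between the groups in an earlier look at these arrays, so those differences are given as a description, with no test.

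The series measured total RNA of fibroblasts cultured from mouse embryos (MEFs, a connective tissue cell) on Illumina bead arrays. The 3 ATG samples carried truncated NELF-B and the 3 FL samples full length NELF-B. NELF-B is a subunit of negative elongation factor, which holds RNA polymerase II near promoters. Both groups were of the C57BL/6 background and were grown in DMEM with 10% serum to 50% confluence. The labels do not say how each form was introduced, whether a form is 1 clone, or whether its 3 samples came from different cultures. The spread between them, on which all p-values rest, may therefore be technical.

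GSTs join the tripeptide glutathione to reactive, often foreign or oxidised, molecules, which makes these more soluble and ready for export from the cell. The classes differ in substrates: alpha class enzymes also reduce lipid peroxides, theta class enzymes act on small halogenated molecules, and omega class enzymes mainly reduce substrates rather than conjugate them. Many GST genes are induced by NRF2, a transcription factor that binds antioxidant response elements as a dimer with a small MAF protein and that KEAP1 holds low in unstressed cells. Many genes of a class lie close together as near copies, such as Gstm5, Gstm7, Gstm6, Gstm3, Gstm2, Gstm1 and Gstm4 in that order on chromosome 3. In the alpha class Gsta1, Gsta2 and Gsta4 lie on chromosome 9, but Gsta3 lies on chromosome 1. A probe of 1 gene may also read a close relative. The files give no probe sequences, and the part of such cross-reading in any value below was not tested.

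The stretches just before the start of 6 members are printed. They set some genes that stood apart between the forms (Gsta1, Gsta3, Gstm1, Gstm2) beside a pair that did not (Gstm5, Gstp1). Gstt1 also stood apart, Gsta2, Gsta4 and Gsto1 also overlapped, and these are not printed. The stretches are from RefSeq (GRCm38.p6), 180 bases up to but not including the start, 5′ to 3′ on the gene's strand. Capitals mark matches on either strand to TGACNNNGC, a core of the antioxidant response element, or to TGANTCA, the site of AP-1 factors. Other spellings of these sites were not searched for, so a gene without a match may still hold one.
Gsta1, chr9:78230489-78230668, plus strand: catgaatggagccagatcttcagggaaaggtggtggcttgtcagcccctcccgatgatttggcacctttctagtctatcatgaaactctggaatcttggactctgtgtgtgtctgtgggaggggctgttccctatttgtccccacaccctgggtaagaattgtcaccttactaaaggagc
Gsta3, chr1:21240405-21240584, plus strand: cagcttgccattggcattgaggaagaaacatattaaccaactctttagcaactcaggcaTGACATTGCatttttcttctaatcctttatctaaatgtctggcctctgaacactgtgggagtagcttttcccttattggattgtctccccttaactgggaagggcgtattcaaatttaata
Gstm1, chr3:108017974-108018153, minus strand: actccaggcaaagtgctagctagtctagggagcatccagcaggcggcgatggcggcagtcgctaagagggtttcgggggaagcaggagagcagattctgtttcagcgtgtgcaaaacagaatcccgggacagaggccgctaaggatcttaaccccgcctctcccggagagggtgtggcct
Gstm2, chr3:107986421-107986600, minus strand: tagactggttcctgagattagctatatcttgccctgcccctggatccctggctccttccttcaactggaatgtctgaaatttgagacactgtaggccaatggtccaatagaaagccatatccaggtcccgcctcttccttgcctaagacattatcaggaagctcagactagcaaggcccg
Gstm5, chr3:107895674-107895853, plus strand: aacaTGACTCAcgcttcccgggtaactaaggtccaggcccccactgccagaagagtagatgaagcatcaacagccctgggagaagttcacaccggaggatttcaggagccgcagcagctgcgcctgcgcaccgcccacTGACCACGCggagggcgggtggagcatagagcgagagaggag
Gstp1, chr19:4037913-4038092, minus strand: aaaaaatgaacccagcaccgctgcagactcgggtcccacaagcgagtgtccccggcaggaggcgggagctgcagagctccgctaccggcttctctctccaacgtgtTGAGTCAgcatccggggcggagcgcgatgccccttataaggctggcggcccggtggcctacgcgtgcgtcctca
Of the 9 members matched in the promoter table, Gsta3 and Gstm5 held the antioxidant core in the 250 bases before the start, at 121 and 42 bases before it, as did 10.2% of all 32851 windows. Gstm5 and Gstp1 held the AP-1 site, at 176 and 74 bases before the start, as did 6.75% of all windows. These shares count windows, whereas members were counted as genes, so they are not set against each other. A match is a run of letters in this window and no measured site. Of the members not printed, Gsta2, Gsto1 and Gstt1 held no match, and Gsta4 had no window. The printed genes alone therefore do not show how matches fall across the members.

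The arrays were similar in brightness. The median intensity was 143.1 to 152.3 with truncated and 144.1 to 151.9 with full-length NELF-B, and 46.4% to 48.7% of probes were detected. Across all genes, 144 of 8990 (1.60%) had an adjusted p under 0.05 (limma, Benjamini-Hochberg), and for 24.8% of the 12227 detected probes the values of the forms had no overlap. Of 10 fibroblast markers on the array, 8 were above background on all 6 arrays, among them Col1a1, Pdgfra and Prrx1, but Thy1 and Postn were on none. Of the hepatocyte markers, which mark a cell type rich in GSTs, Alb, Afp, Apoa1, Apoa2, Fgb and Tat were above background on no array, and Serpina1a was the only 1 of 8 detected on at least 3. The summed intensity of those 8 was 1031.4 to 1105.4 with truncated and 1035.5 to 1075.5 with full-length NELF-B. Of the markers of other cell types, the epithelial Cdh1, Krt19 and Cldn7, the blood cell Cd68 and Csf1r, the endothelial Kdr and the neural Tubb3, Nes and Map2 were above background on at least 3 arrays. Of the same lists, Krt18 and Cldn4 (epithelial), Adgre1, Tyrobp, Fcer1g and Laptm5 (blood), Pecam1 and Cdh5 (endothelial) and Sox2, Dcx and Gfap (neural) were above background on none. The summed intensity of the epithelial list was 864.6 to 883.9 with truncated and 846.3 to 922.4 with full-length NELF-B. That of the blood list was 988.3 to 1025 with truncated and 989.4 to 1015.3 with full-length NELF-B, and that of the neural list 1123.1 to 1260.7 with truncated and 1167.2 to 1214.9 with full-length NELF-B. The endothelial list read 669.1 to 707.7 with truncated and 710.7 to 712.5 with full-length NELF-B, slightly lower on all truncated arrays. These sums are of uncorrected intensities. The inferred mean of the negative controls was 131.5 to 138.1 per probe, so the sums of these lists are mostly background. The fibroblast list, summed the same way, read 20763.4 to 26223.5 with truncated and 24129.2 to 29279 with full-length NELF-B.

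Log2 differences below are truncated minus full-length, on background-corrected and quantile-normalised log2 intensities, with a standard error (SE) and n = 3 arrays per form. The SE comes from a fit of every probe for the members and for a second probe of another gene, and from the fit of 8990 genes for the other genes. Values called intensity are the deposited linear ones. Levels of different probes are not comparable, since each probe has its own brightness.

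The alpha class split: Gsta1 was higher and Gsta3 lower with truncated NELF-B. Gsta1 encodes an alpha class transferase with peroxidase activity. Its intensity was 178.8, 180 and 187.6 on truncated arrays 1, 2 and 3, against 149.6, 156 and 139.5 on the full-length arrays. All 3 truncated arrays were above background and only full-length array 2 was. The probe thus met the detection filter only with the truncated arrays, where it was brighter. Nothing is read from that split in detection. In log2 the truncated arrays read 6.23, 5.97 and 5.95, and the full-length arrays 4.92, 5.08 and 4.78. The lowest truncated array lay 0.87 above the highest full-length array, and the difference was 1.12 ± 0.12. Because the full-length values sit near background, its size depends on the background correction, and with none it was 0.33.

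Gsta3 encodes the alpha class enzyme that in mice detoxifies the epoxide of aflatoxin. Its brighter probe read 157.8, 187 and 194.2 on the truncated arrays, against 250.1, 250.3 and 244.2 on the full-length arrays, all above background. In log2 these were 5.60, 6.13 and 6.07 with truncated and 6.94, 6.88 and 7.05 with full-length NELF-B. The full-length arrays lay close together and the truncated ones spread downwards, with array 1 lowest. The difference was -1.02 ± 0.15, or 2.03-fold lower with truncated NELF-B, and it was -0.85 without truncated array 1 and -0.43 with no background correction. The other Gsta3 probe carries the same accession and was above background on no array, with detection p-values from 0.701 to 0.94. The lower Gsta3 reading thus rests on the brighter probe alone, and why the other stayed at background was not tested.

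Gsta2, the closest relative of Gsta1 in the alpha class, did not share its gap. The intensities were 151.9, 158.9 and 150.7 with truncated and 138.1, 154.7 and 143.9 with full-length NELF-B, and only 2 truncated and 1 full-length array were above background. The log2 means were 5.20 ± 0.26 and 4.86 ± 0.23 (SD, n = 3 each), a difference of 0.34 ± 0.17 with overlapping arrays. Gsta4, which conjugates the lipid peroxidation product hydroxynonenal and lies next to Gsta1 on chromosome 9, was above background on every array. Its log2 values were 8.61, 8.36 and 8.52 with truncated and 8.33, 8.19 and 8.62 with full-length NELF-B, which overlapped, with a difference of 0.11 ± 0.13. The neighbours Gsta1 and Gsta4 thus gave differences of 1.12 and 0.11.

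**Figure D1:**
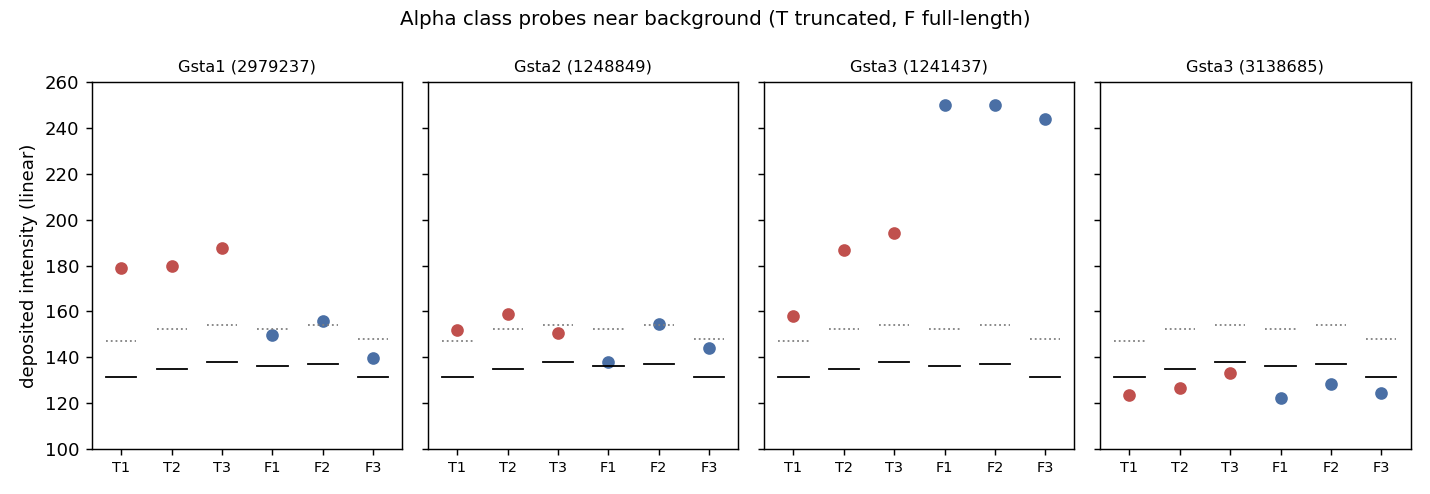
Deposited linear intensity of the probes of Gsta1, Gsta2 and Gsta3 on truncated (T1 to T3, red) and full-length (F1 to F3, blue) arrays. Black lines are the mean of the negative controls inferred for each array, and dotted lines the lowest intensity above background on it. Gsta1 sat above the dotted line on all 3 truncated arrays and on full-length array 2 only, the brighter Gsta3 probe stood highest on the full-length arrays, and the other Gsta3 probe lay below the controls' mean throughout.

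In the mu class, Gstm1 and Gstm2 were lower with truncated NELF-B, and Gstm5 was not apart. Gstm2, a mu class transferase, had 3 probes that all placed every truncated array below every full-length array. The probe ILMN_2862470 read 989.9, 1311.3 and 1464.9 with truncated, against 1935.1, 2011.9 and 1935.7 with full-length NELF-B. In log2 that was 10.00, 10.25 and 10.27 with truncated and 10.77, 10.83 and 10.83 with full-length NELF-B, a difference of -0.64 ± 0.10. The full-length arrays lay within a narrow band, and truncated array 1 was again the lowest.

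The other Gstm2 probes gave smaller differences of the same sign. ILMN_1251449 had log2 values of 11.43, 11.57 and 11.73 with truncated and 11.88, 11.93 and 11.97 with full-length NELF-B, a difference of -0.35 ± 0.10. ILMN_2624854 had 11.73, 11.78 and 11.93 with truncated and 12.00, 12.10 and 12.38 with full-length NELF-B, a difference of -0.35 ± 0.12. The gap between the nearest arrays of the forms was 0.08 for that probe, against 0.51 for ILMN_2862470. The 3 probes read the same RNA samples and are not 3 independent measurements, and their sizes were not tested against each other.

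Gstm1, the neighbour of Gstm2, conjugates a broad range of electrophiles. Its brighter probe read 1037.7, 1261 and 1296.8 with truncated and 1502.9, 1561 and 1536.3 with full-length NELF-B. The log2 values were 10.07, 10.18 and 10.07 with truncated and 10.38, 10.41 and 10.49 with full-length NELF-B, with no overlap and a difference of -0.32 ± 0.08. Its other probe was near background, at 149.7 to 158.9 with truncated and 150.6 to 168.9 with full-length NELF-B, and its arrays overlapped (-0.12 ± 0.18).

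Gstm5, a further mu class gene at the end of the same cluster, had log2 values of 10.73, 10.78 and 10.88 with truncated and 10.66, 10.75 and 11.21 with full-length NELF-B. Full-length array 3 stood above the other 5 arrays, the forms overlapped, and the difference was -0.07 ± 0.15. Without full-length array 3 the sign turned, at 0.09.

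Gstt1, the theta class enzyme that acts on halogenated alkanes, was lower with truncated NELF-B. Its intensity was 390.2, 460.4 and 460.4 with truncated, against 631.5, 535.2 and 580.3 with full-length NELF-B. In log2 the truncated arrays read 8.35, 8.46 and 8.28 and the full-length arrays 8.92, 8.59 and 8.91. Full-length array 2 came nearest to the truncated ones but did not reach them, and the difference was -0.45 ± 0.12.

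The pi and omega class members overlapped between the forms. Gstp1 encodes the pi class transferase, which also binds the stress kinase JNK. Its brightest probe had log2 values of 12.68, 12.68 and 12.48 with truncated and 12.47, 12.49 and 12.67 with full-length NELF-B, a difference of 0.08 ± 0.10. A further Gstp1 probe gave 0.20 ± 0.11, also with overlap. The last, with the same accession as the others, was above background on no array. Gsto1, which reduces dehydroascorbate and methylated arsenic, read 12.18, 12.10 and 11.89 with truncated and 11.88, 11.94 and 11.79 with full-length NELF-B. The truncated mean was higher by 0.18 ± 0.10, and truncated array 3 fell inside the full-length range.

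**Figure D2:**
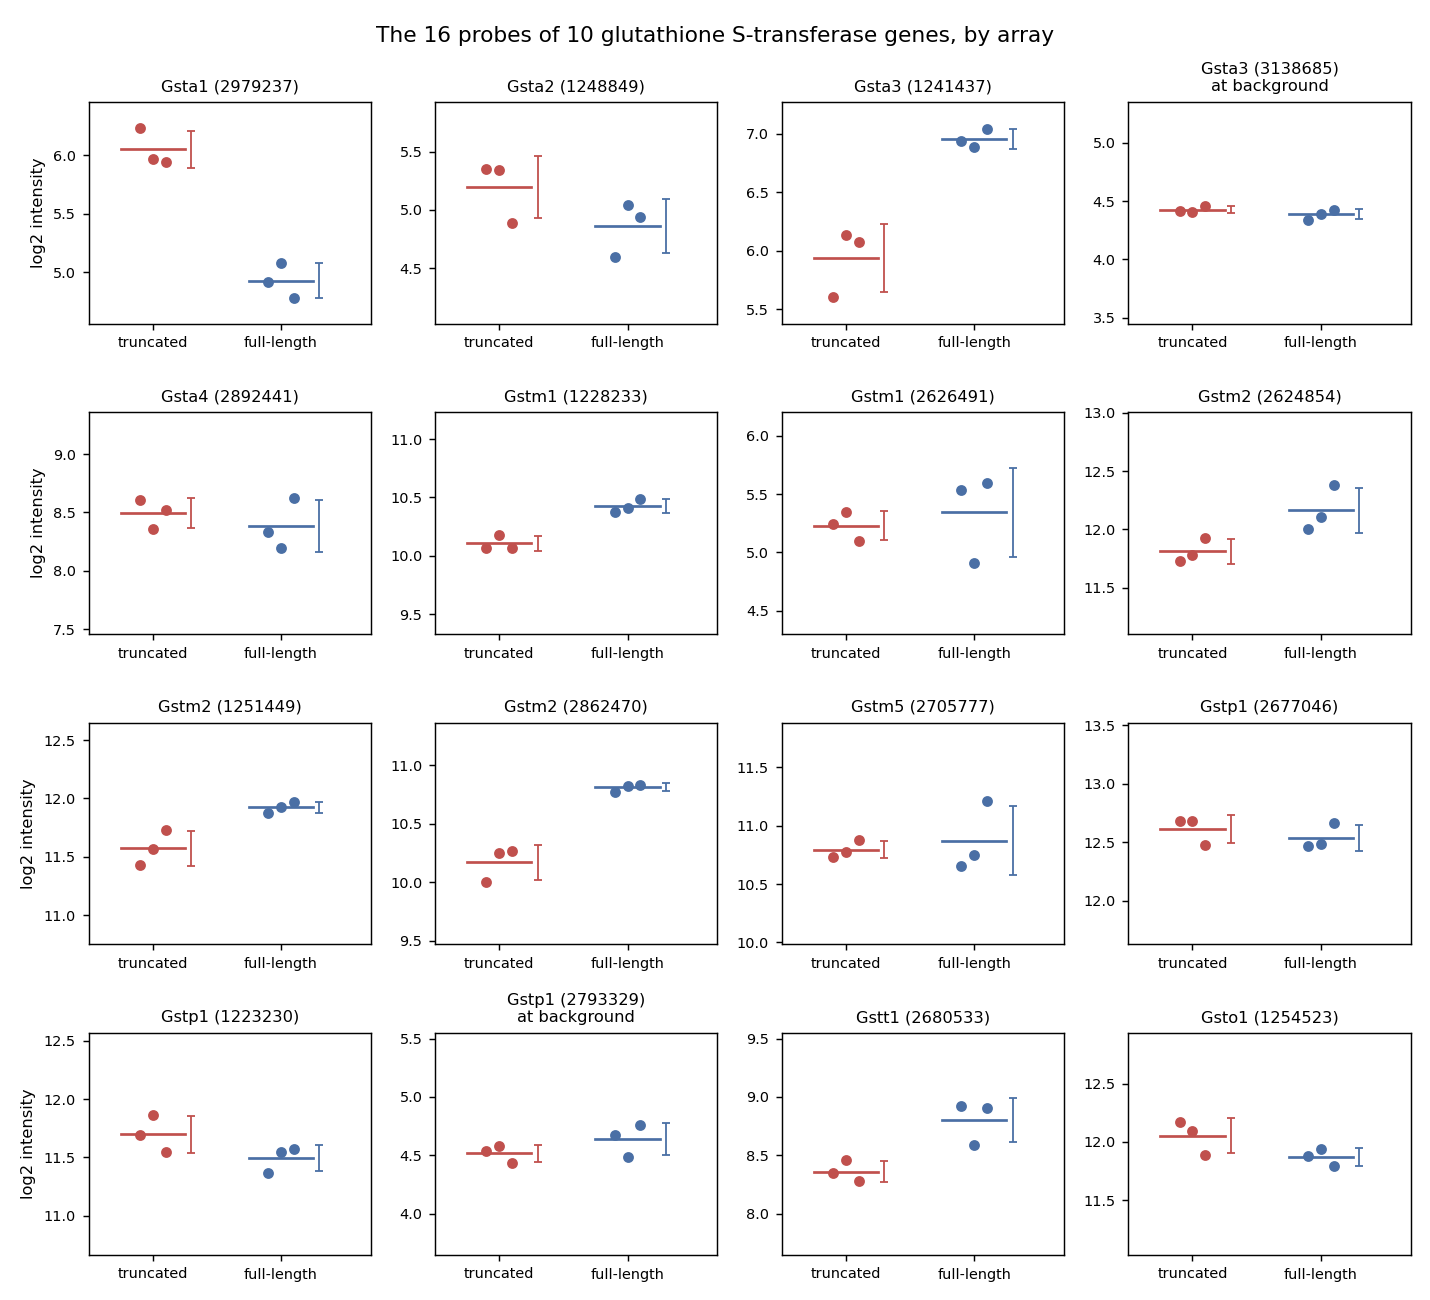
Normalised log2 intensity of each of the 16 probes on the truncated (red, left) and full-length (blue, right) arrays, with a line at the mean of 3 arrays and a bar of 1 SD either way. Every panel spans the same number of log2 units. The forms are apart for Gsta1 (higher with truncated) and for the brighter probes of Gsta3 and Gstm1, all Gstm2 probes and Gstt1 (lower with truncated).

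Among the 14 detected probes, 1 lay wholly higher with truncated NELF-B, 6 lay wholly lower and 7 overlapped. Across all detected probes 12.5% lay wholly higher and 12.4% wholly lower. By gene, 5 of the 10 had no overlap between the forms, against 25.7% of all genes. The 1 higher probe, that of Gsta1, met the detection filter only with the truncated arrays. For that reason, and since the members were chosen with this contrast known, nothing is read from these shares. The SD within a form ran from 0.06 to 0.29 over the truncated arrays and from 0.03 to 0.38 over the full-length arrays. The median difference over the 14 probes was -0.10, and over all 12227 detected probes 0.01.

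Truncated array 1 was the lowest of all arrays for 5 of the 6 probes that lay lower, and truncated array 3 for the other. Without truncated array 1, Gstm1 differed by -0.30, the Gstm2 probes by -0.56, -0.28 and -0.31, and Gstt1 by -0.44, so each kept its sign. Gsta1 differed by 1.06 without it. Truncated array 1 also had the lowest median intensity of the 6 before normalisation, at 143.1, and the part of this in the values was not tested.

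Of the other genes on the array, those whose log2 profile over the 6 arrays, centred on its mean, lay nearest to a member were found by root mean square distance among 8900 genes. Nearest to Gsta1 were Zfp382 at 0.18, the mitotic transcription factor gene Foxm1 at 0.20 and the replication factor gene Mcm10 at 0.20. Nearest to Gsta3 were Mettl27 at 0.06, the haptoglobin gene Hp at 0.08 and the secreted Wnt modulator gene Sfrp2 at 0.10. Hp read 10.16, 10.65 and 10.52 with truncated and 11.51, 11.46 and 11.40 with full-length NELF-B, a difference of -1.02, close to that of Gsta3, with the same array lowest. The profiles share the 6 libraries and the contrast that chose the members, so the distances are a description.

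The rest of the GST superfamily was not used to choose the members. This list and those below were, however, written with earlier results of these data known. Of 32 further genes listed, 26 were on the array and 16 were detected, and none rose or fell by limma with adjustment over all genes. With p under 0.05 and no adjustment there were 2 of the 16, both of the microsomal class, where 20.1% of all genes had such a p. The median difference of the 16 was -0.09, against 0.01 over all genes. Mgst1, the membrane-bound transferase of the endoplasmic reticulum and mitochondria, read 10.23, 10.39 and 10.34 with truncated and 10.58, 10.71 and 10.98 with full-length NELF-B. Its arrays did not overlap, and the difference of -0.44 ± 0.13 did not pass (adjusted p = 0.116, limma). The other Mgst1 probe gave -0.67 ± 0.24, also without overlap.

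Mgst2, which takes part in leukotriene synthesis, stood at -0.41 ± 0.18 with overlapping arrays (adjusted p = 0.247, limma). Gstt3, the theta class neighbour of Gstt1, read 9.32, 9.48 and 9.37 with truncated and 9.58, 9.62 and 9.53 with full-length NELF-B. It lay lower on all truncated arrays, by a small difference of -0.19 ± 0.10 that did not pass (adjusted p = 0.348, limma). Of the mu class neighbours, Gstm4 (-0.18 ± 0.27) and Gstm6 (-0.23 ± 0.16) were near background and overlapped, and Gstm3 was above background on no array. Gstp2, next to Gstp1, differed by 0.07 ± 0.20, and Gsto2, next to Gsto1, by -0.15 ± 0.11.

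**Figure D3:**
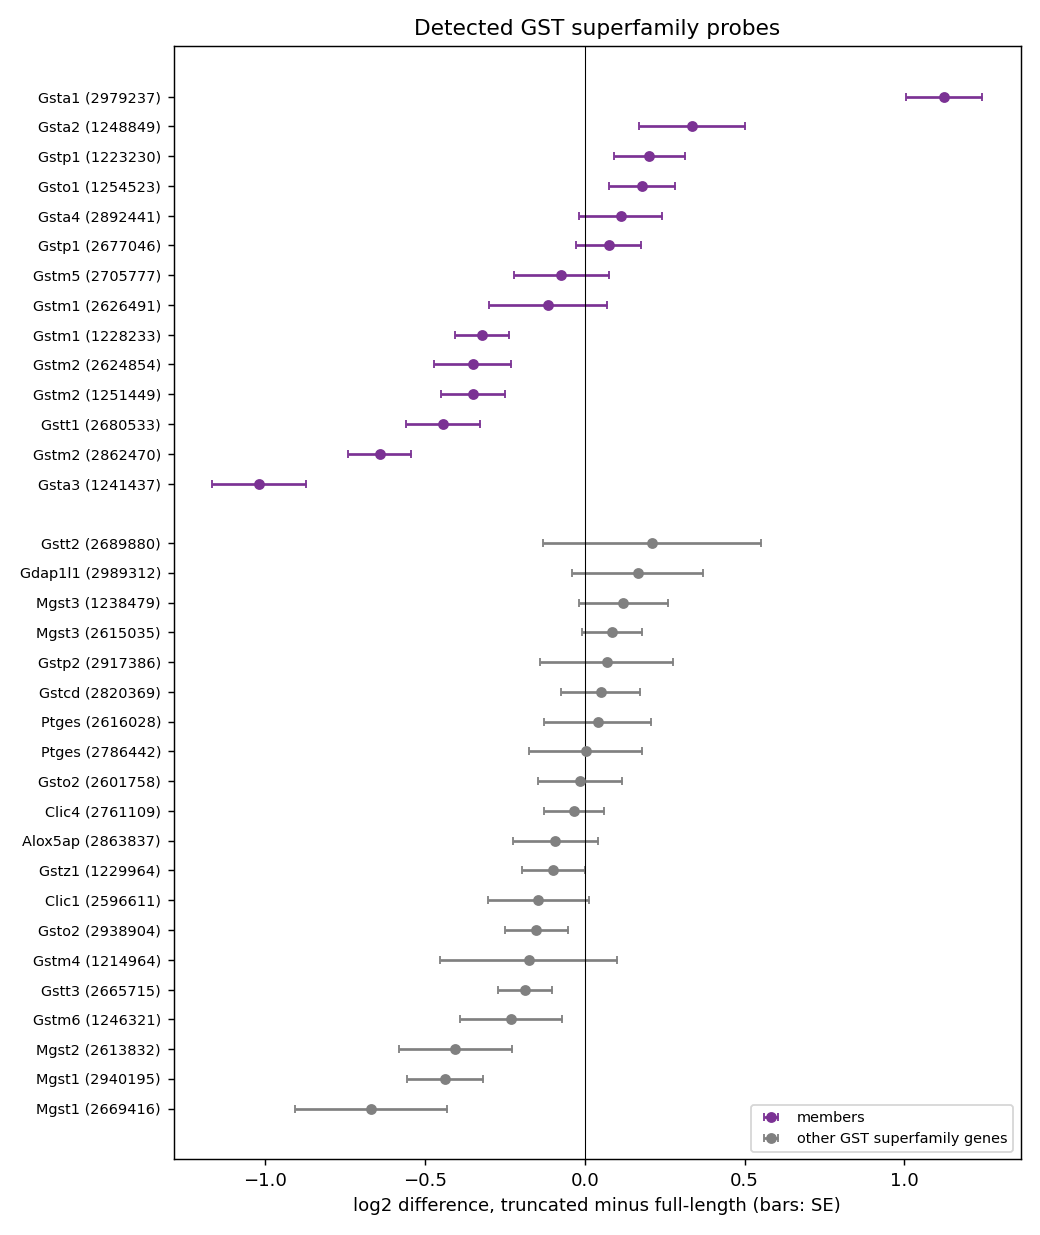
Log2 difference, truncated minus full-length, with its SE for each detected probe of the members (purple, top) and of other GST superfamily genes (grey, bottom), from a fit of every probe. Members span from -1.02 to 1.12, and the 20 other probes from -0.67 to 0.21.

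The supply and breakdown of glutathione held the 4 pathway genes that passed the test. Of 11 detected genes of that list, Slc7a11 and Chac1 rose, Anpep and Oplah fell and 7 did not pass. Over all genes 0.512% were called higher and 1.09% lower. Since the list was written with earlier results known, nothing is read from these shares. Oplah encodes oxoprolinase, which returns oxoproline from glutathione breakdown to glutamate. It read 7.64, 7.66 and 7.91 with truncated and 8.35, 8.27 and 8.36 with full-length NELF-B, and fell by 0.59 on the log2 scale (SE 0.12, adjusted p = 0.0487, limma). Chac1, which cleaves glutathione inside the cell, read 10.29, 10.52 and 10.35 with truncated and 9.90, 9.83 and 9.72 with full-length NELF-B, and rose by 0.57 ± 0.11 (adjusted p = 0.0487, limma).

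Slc7a11, the cystine importer that feeds glutathione synthesis, rose by 0.98 ± 0.19 (adjusted p = 0.0487, limma). Its intensities were 182.6, 217 and 202.3 with truncated and 166.3, 179.3 and 147.4 with full-length NELF-B, the last of them at background. Anpep, a surface peptidase that can split the glutathione breakdown product cysteinylglycine, fell by 1.60 on the log2 scale (SE 0.26, adjusted p = 0.0346, limma). Its truncated arrays read 141.1, 158.1 and 193, the first of them at background, against 252.6 to 253.3 on the full-length arrays. Slc7a11 and Anpep were both dim, with mean intensities of 200.6 and 164.1 with truncated and 164.3 and 252.9 with full-length NELF-B. The part of the background correction in the sizes of their differences was not tested. The list's median difference was 0.07. Slc3a2, the partner chain of Slc7a11, did not pass (0.26 ± 0.11, adjusted p = 0.215, limma). It sat near background, at 151.7, 153.2 and 158.9 with truncated and 150.3, 152.4 and 144.5 with full-length NELF-B. Only the truncated arrays were above background, and the gene met the detection filter through them alone. Nothing is therefore read from that split, nor from the 1.13-fold difference against the dimmest detected signal of each full-length array.

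The synthesis enzymes themselves did not pass. Gclm, the modifier subunit of the first enzyme of glutathione synthesis, stood at 0.20 ± 0.11 and Gss, the second enzyme, at -0.04 ± 0.15. Gclc, the catalytic partner of Gclm, had 1 probe, above background on no array. With 1 array left out, the differences kept their sign in all 6 refits, from -1.91 to -1.33 for Anpep, -0.68 to -0.54 for Oplah, 0.50 to 0.62 for Chac1 and 0.80 to 1.13 for Slc7a11. The calls changed more: without truncated array 1, truncated array 2 or any 1 of the full-length arrays, 0 to 11 genes in all and none of the list passed. Without truncated array 3, 304 genes passed, Anpep, Oplah and Slc7a11 among them.

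**Figure D4:**
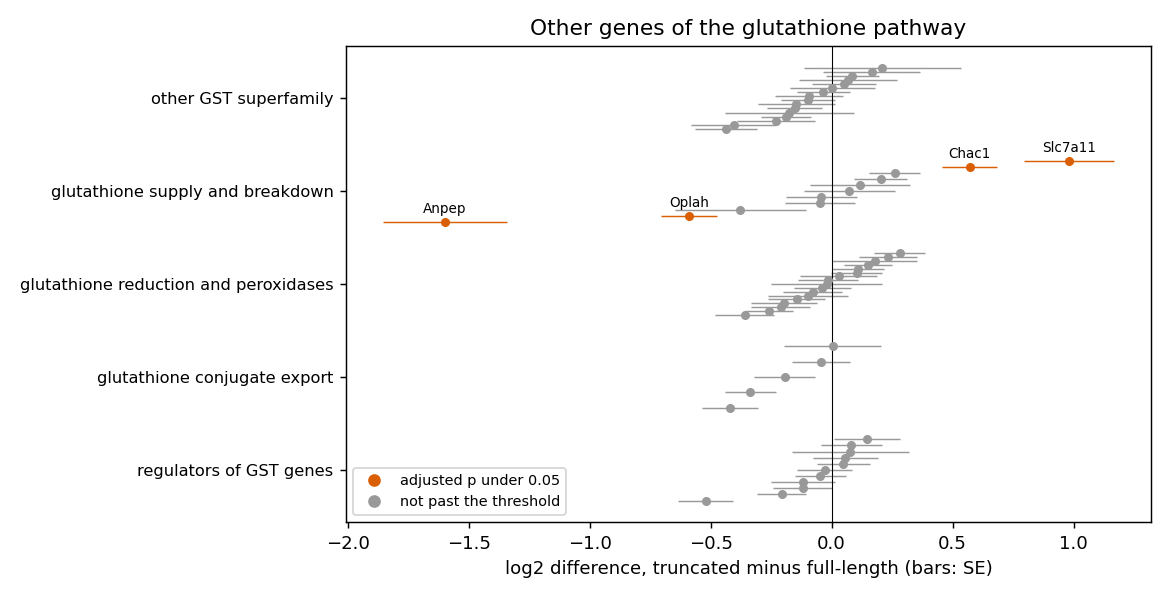
Log2 difference, truncated minus full-length, with its SE for each detected gene of 5 lists of the glutathione pathway. Orange points passed an adjusted p of 0.05 over all genes, and all 4 belong to glutathione supply and breakdown.

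None of the 17 detected genes of the list of glutathione reduction and peroxidases passed (limma), and their median was -0.02. The list also holds genes of other steps, such as G6pdx, Idh1, Glo1 and Esd. Gsr, the glutathione reductase gene, had no probe on the array, so the enzyme that reduces glutathione itself was not measured. With no adjustment, 3 of the 17 had p under 0.05, a share no higher than the 20.1% of all genes: the reticulum peroxidase gene Gpx7 (-0.36 ± 0.12), Glrx5, a mitochondrial glutaredoxin (0.28 ± 0.11), and the glutaredoxin Glrx (-0.26 ± 0.10). None of the 5 detected exporters of glutathione conjugates and related cargo passed (limma), and 4 of the 5 had values below 0, as did 48.3% of all genes. With no adjustment, 2 of the 5 had p under 0.05, against 20.1% of all genes. Abcc3 differed by -0.42 ± 0.12 (adjusted p = 0.106, limma) and Abcc10 by -0.34 ± 0.11 (adjusted p = 0.128, limma), both with every truncated array below every full-length one.

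Regulators of GST genes did not pass either. Of 11 detected, Bach1, a repressor that competes with NRF2 for antioxidant response elements, came nearest and was the 1 gene of the 11 with an unadjusted p under 0.05. It read 8.69, 8.91 and 8.93 with truncated and 9.44, 9.35 and 9.31 with full-length NELF-B, a difference of -0.52 ± 0.11 (adjusted p = 0.0585, limma). Nfe2l2, which encodes NRF2, differed by 0.15 ± 0.14 and Keap1 by -0.12 ± 0.12, both with overlap. Ahr, Nr1i2 and Mafk were above background on no array. The RNA level of a regulator is not its activity, which was not measured.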

How the data were processed

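RNA of 6 MEF samples was labelled with biotin after amplification and measured on 1-colour Illumina bead arrays, per the labels. Per the file headers, the deposited table holds each probe's non-normalized signal intensity and its detection p-value on every array. GenomeStudio is named without a version in the submitters' processing notes. A second deposited table of intensities, whose normalization is not stated, served only as an alternative. No column was left unused (0 columns). No chip or scan date was given, so neither could be a block. The number of arrays limits the precision.

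Members were found by the file's symbol. For all other uses probes were named by RefSeq accession (24202 of 25697), current symbol (536) or unique synonym (297) in the GRCm38.p6 gene table, and 662 kept the file's name. With limma 3.58.1 in R 4.3.3, intensities were background-corrected by normexp with negative controls inferred from the detection p-values (offset 16). They were then quantile normalised and put on the log2 scale. The sizes of differences of dim probes depend on the correction and its offset, and their true sizes are not known. For Gsta1 the difference was 1.12 as reported, 0.64 with an offset of 50 and 0.33 with no background correction. A probe was detected at a detection p under 0.05 on at least 3 arrays. The brightest probe stood for a gene (8990 genes). Groups were compared with lmFit and eBayes and Benjamini-Hochberg adjustment at 0.05. Members' differences come from the same fit over every probe.

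The members, lists and tests were chosen with earlier results of these data known. Named genes are all members, the called genes of each list with up to 4 more of smallest p, and the 3 nearest profiles of Gsta1 and Gsta3; Gclc, Gss, Keap1, Gstm3, Gstm4, Gstp2, Gsto2, Ahr, Nr1i2 and Mafk were added after their values were seen, as relatives or partners of named genes. The fit was tested on simulated data. Same-numbered samples of the forms did not deviate together (correlations of 0.03, -0.16 and -0.14), so the numbers gave no ground for pairing. Differently numbered samples gave -0.04 to 0.18, the highest for truncated sample 3 with full-length sample 2. Whether samples of the 2 forms shared a batch was not tested. Figures were drawn with matplotlib 3.10.9.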

Additional observations from a re-analysis of the deposited data

How the results depend on the processing

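Every detected member probe kept its sign under each alternative that kept the probe, except the dim Gstm1 probe and Gstm5, which each turned in 1 of 16 and 18 settings. Gsta1 ranged from 0.33 to 1.18 and Gsta3 from -1.12 to -0.41, the smallest sizes coming without background correction or from the deposited second table. Counts were less stable. The 144 genes called were 706 without background correction, 531 with an offset of 50, 81 with median scaling and 731 with the second table. They were 33 with no filter, 250 with detection on all 6 arrays, 243 at a detection p under 0.01, 78 with every probe tested on its own, 728 with a variance trend and robust eBayes and 354 with array weights. Of the calls 68.1% were lower, against 52.5% without background correction and 85.2% with median scaling. The 4 pathway genes called were 8 without background correction, 7 with an offset of 50, 1 with median scaling, 9 with the second table, 3 with detection on all 6 arrays (Bach1, Chac1 and Oplah, since Anpep and Slc7a11 were not above background on every array), 0 with no filter (where 2401 of all genes had an unadjusted p under 0.05), 1 with every probe on its own and 8 with the variance trend. Bach1, Abcc3, Mgst1 and Gpx7 were among the 8 in both such settings. With the replicate block 33 genes and 2 pathway genes (Anpep and Slc7a11) were called, though the labels state no pairing of the samples. Leaving out each array in turn gave 0 to 304 genes and 0 to 3 pathway genes. Cyclic loess and averaged probes gave similar counts. The causes were not tested. Some settings also change the number of arrays or the genes tested.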
